A study of Homo sapiens with 9 samples.

Results

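Retinoic acid acts through nuclear receptors and the coregulators bound to them, and 8 genes of this system were followed here. They were the retinoic acid receptor genes RARA, RARB and RARG, the retinoid X receptor genes RXRA, RXRB and RXRG, and the corepressor genes NRIP1 and NCOR1. The probe sets were all those that the platform annotation assigns to exactly 1 gene, that gene being among the 8. The rule found 21 probe sets of 7 genes among 54613 probe sets that are not controls. RARA and RARB had 5 each, RARG and RXRB 3 each, RXRA and NRIP1 2 each, and RXRG 1. NCOR1 had no probe set under the rule and was not analysed here.

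As background, retinoic acid receptors bind DNA as heterodimers with retinoid X receptors, at response elements built from direct repeats of a hexamer. Without ligand the heterodimer holds corepressors of the NCOR family, which recruit histone deacetylases, and with ligand these are exchanged for coactivators. NRIP1 (also called RIP140) differs from the NCOR proteins in that it binds the receptors when ligand is present and represses them. RARB and CYP26A1, the hydroxylase that degrades retinoic acid, are textbook targets of the receptors, and retinoic acid is widely used to make embryonic stem cells leave the pluripotent state.

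RNA was measured on 9 Affymetrix 1-colour arrays from WA09 cells, an established human embryonic stem cell line, in 3 groups of 3 arrays. In the differentiating group, retinoic acid (RA) was present for 2 days at 1 µM, in medium to which no FGF had been added. In the damage group, DOX was present for 5 h, a label taken here to mean doxorubicin, a drug that breaks DNA. The pluripotent group is of the same line without either agent, and all cells were at passages 32 to 38. RA and the missing FGF therefore cannot be told apart in any comparison with the differentiating arrays. The protocols describe growth on irradiated mouse embryonic fibroblasts and feeder-free growth on Matrigel, and the labels do not tie either to an array. Nor is it stated that arrays of a group are of separate cultures, and the p-values therefore cover no more than the variation among these 9 arrays, possibly a technical one.

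Values are normalised log2 intensities (RMA), with an array median of 4.62 to 4.68. Arrays of a group correlated at 0.996 to 0.998 over 19775 genes, each at its probe set of the highest mean. The third pluripotent array had a limma array weight of 0.578, against 1.44 and 1.47 for the other pluripotent arrays and 0.692 to 1.27 for the treated ones. The treatments were visible in their known targets. CYP26A1 averaged 12.33 in differentiating and 10.69 in pluripotent cells (log2 change 1.64, SE 0.09, adjusted p = 2.24e-06). CDKN1A and MDM2, targets of p53, rose by 3.71 (adjusted p = 1.55e-08) and 2.02 (adjusted p = 1.48e-07) in damage arrays. Both were also higher in differentiating than in pluripotent arrays, by 0.92 (adjusted p = 6.27e-04) and 0.42 (adjusted p = 0.0157). All 7 measured stem cell markers of 9 listed lay above the median probe set in each group, with group means of at least 10.07. POU5F1 and TDGF1 had no probe set of their own. NANOG was lower in differentiating cells (−0.34, adjusted p = 0.0361), and SOX2 was lower in damage arrays (−0.46, adjusted p = 0.00241). With each treatment the other 6 of the 7 were not called by limma. The median log2 change of the 7 was 0.10 with RA and −0.09 with DOX. Of 9 fibroblast markers, 2 were higher (COL1A1 by 1.00 and COL3A1 by 0.57) and 1 lower (THY1, −0.37) in differentiating arrays, and 3 were higher in damage arrays (COL1A1 by 1.08, S100A4 by 0.41 and THY1 by 0.33). Of all genes, 3.16% were called higher and 3.32% lower with RA, and 5.67% and 9.6% with DOX. The summed linear level of the 9 markers was 3835 to 4193 in differentiating, 4389 to 4955 in damage and 2806 to 2969 in pluripotent arrays. COL1A1 made up much of it, and the sum of the other 8 was 1285 to 1437 in differentiating, 1806 to 1839 in damage and 1517 to 1630 in pluripotent arrays. Without COL1A1 the differentiating arrays thus lay below the pluripotent ones and the damage arrays above them. That sum followed mainly THY1 and COL1A2, the brightest of the 8, and COL1A2 was not called with RA (−0.13) or DOX (0.07). The mean log2 level of all 9 was 6.55 to 6.62 in differentiating, 6.74 to 6.82 in damage and 6.48 to 6.51 in pluripotent arrays. The order of differentiating and pluripotent arrays thus depended on how the markers were combined. LUM and POSTN lay below the median probe set in every group. The part of such cells in the results below was not tested. Fewer cells of a type and less RNA per cell cannot be told apart in bulk RNA. The feeders of the protocols were mouse cells, and whether probe sets of these human genes detect mouse RNA was not tested.

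The response element that made RARB a model target is printed first, because RARB moved farthest of the genes studied here. RefSeq promoter windows of assembly GRCh38.p14, each with 250 bases before and 50 bases from the annotated start, were searched for the consensus hexamer AGGTCA and its common variants (GGGTCA with a G first, then AGTTCA with a T inside, then GGTTCA with both changes) as direct repeats on both strands. The forward-strand window chr3:25428013-25428312, 1 of 4 windows of RARB, held a repeat with a spacer of 5 bases. The 250 bases before its start are given below, with the hexamers of the repeat in capitals.
RARB, chr3:25428013-25428262 (+): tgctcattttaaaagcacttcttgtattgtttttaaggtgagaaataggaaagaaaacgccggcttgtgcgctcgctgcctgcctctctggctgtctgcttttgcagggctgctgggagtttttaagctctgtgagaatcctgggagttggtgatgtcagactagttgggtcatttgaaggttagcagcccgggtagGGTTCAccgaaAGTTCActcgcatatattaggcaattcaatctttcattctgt

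The repeat spans 17 bases at chr3:25428210-25428226, at positions −53 to −37 from the start. CYP26A1 held a repeat of the same spacing on the opposite strand at chr10:93073803-93073819, at positions −90 to −74. Both are shown to compare the letters.
RARB: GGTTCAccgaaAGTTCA
CYP26A1: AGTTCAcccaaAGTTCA

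Such a repeat was rare. It was found in 31 of 35116 windows (0.0883%), which belong to 29 genes. Repeats with a spacer of 2 bases were in 0.0399% and those with a spacer of 1 base in 0.131% of windows, while a single hexamer was in 38.6%. Among the 18 windows of the 8 genes studied, 1 held the repeat spaced by 5 bases, 0 held the other spacings and 7 held at least 1 hexamer. The windows of NRIP1, RARA and RXRA had none of the repeats, which says only that these letters are not in these windows. Of the 29 genes, 15 were measured at 1 probe set per gene. RARB and CYP26A1 were higher in differentiating cells and 0 of the 15 were lower (gene-level limma fit, beside 3.16% and 3.32% of all genes). Both are the known targets introduced above, and no other gene of the 15 was called with RA. The counts were therefore no test of the repeat. The median log2 change of the 15 was 0.086, beside −0.0041 for all genes. With DOX 1 of the 15 (ATXN1L) was higher and 0 were lower, beside 5.67% and 9.6% of all genes, a share near the background. These matches are a description of letters and not of bound receptors.

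The first comparison asks what 2 days of RA did to the receptors and corepressors. In differentiating cells 2 RARB probe sets, 1 of NRIP1 and 1 of RARA were higher and 1 of RXRA was lower than in pluripotent cells. That is 5 of 21 probe sets (23.8%), while 2.95% of all probe sets were called in this comparison, 1.47% higher and 1.48% lower. The members were chosen with earlier results of these data known, so these shares are no test of the group. A call means a limma p adjusted by the Benjamini-Hochberg method over all 54613 probe sets of under 0.05. At an unadjusted p under 0.05 there were 7 of 21, beside 12.5% of all probe sets. In 6 probe sets no differentiating array overlapped the pluripotent range, 5 of them higher and 1 lower, beside 16.7% of all probe sets (7.88% higher and 8.81% lower). The median log2 change of the 21 was 0.11, and that of all probe sets 0.0026. The second comparison asks the same of DNA damage. After DOX, 0 of 21 probe sets were called by limma, while 7.71% of all probe sets were (3.2% higher and 4.52% lower). At an unadjusted p under 0.05 there were 3 higher and 0 lower, beside 19.4% of all probe sets, and the damage arrays lay above all pluripotent arrays for 3 and below them for 0, beside 9.69% and 11.7% of all probe sets (21.3% in all). All 21 changes lay between −0.22 and 0.32. Both comparisons use the same pluripotent arrays.

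**Figure D1:**
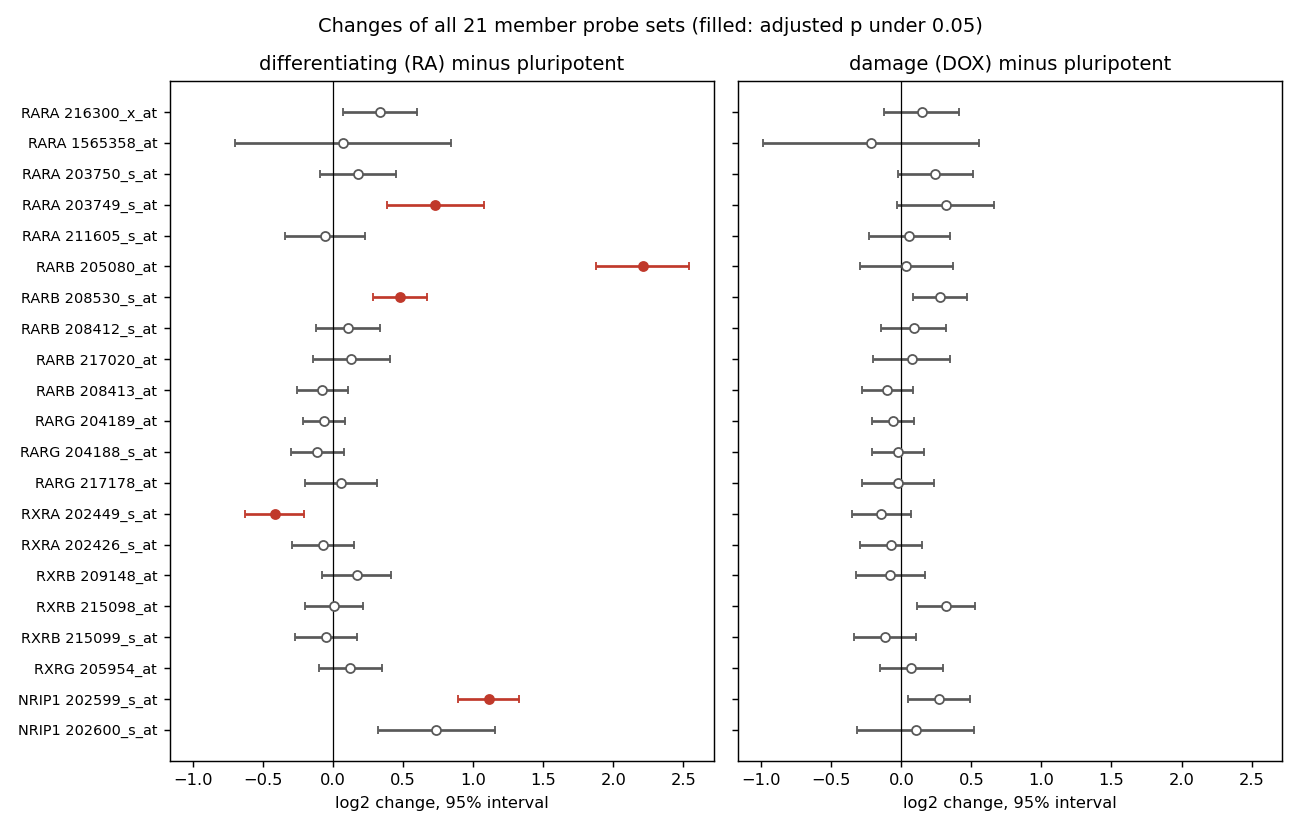
Log2 change of each of the 21 probe sets, differentiating minus pluripotent on the left and damage minus pluripotent on the right, with 95% intervals from limma and filled points for adjusted p under 0.05. In the RA panel RARB 205080_at and NRIP1 202599_s_at lie farthest to the right and RXRA 202449_s_at is the called probe set left of 0, whereas no point of the DOX panel is filled.

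RARB, the receptor gene whose own promoter carries the element shown above, had the highest change of the members. RARB 205080_at read 6.50, 6.56 and 6.36 in differentiating arrays, 4.38, 4.12 and 4.40 in damage arrays and 3.89, 4.54 and 4.37 in pluripotent arrays. All differentiating values lay above the median probe set and all others below it, and the damage and pluripotent arrays overlapped. The means were 6.47 ± 0.10 in differentiating and 4.26 ± 0.34 in pluripotent cells (SD, n = 3 each). The log2 change was 2.21 (SE 0.15, 95% interval 1.88 to 2.54, adjusted p = 1.33e-05), a 4.63-fold higher level with an interval of 3.68- to 5.83-fold. Because the pluripotent level was not shown to be above background, this fold may be a lower bound. Against damage arrays RARB 205080_at was higher by 2.18 (adjusted p = 4.51e-06), and DOX against pluripotent gave 0.03 (interval −0.30 to 0.37, adjusted p = 0.939).

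RARB 208530_s_at showed a smaller change. It read 5.07, 5.09 and 5.03 in differentiating, 4.77, 4.87 and 4.94 in damage and 4.44, 4.58 and 4.74 in pluripotent arrays. The groups did not overlap, with the damage arrays between the other groups. Its log2 change with RA was 0.48 (SE 0.09, adjusted p = 0.0135). With DOX it was 0.27 (SE 0.09, adjusted p = 0.0948), which did not pass, and the differentiating arrays differed from the damage arrays by 0.20 (adjusted p = 0.191). The RA call was lost when the first or second differentiating array or the first or second pluripotent array was left out (adjusted p 0.0542 to 0.0597). The DOX value passed when the third pluripotent array was left out (0.35, adjusted p = 0.0313) and with array weights (0.31, adjusted p = 0.0478).

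The remaining RARB probe sets, 208412_s_at, 217020_at and 208413_at, lay below the median probe set on all 9 arrays. Their RA changes were 0.11, 0.13 and −0.08, and none passed (smallest adjusted p = 0.780). The 5 RARB probe sets thus differed in what they recorded, and which RARB transcript each of them detects is not given in the sources used here. The mean of the 5 rose by 0.57 with RA in a limma fit of such means for all genes (adjusted p = 2.91e-04), against 2.21 for 205080_at alone.

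**Figure D2:**
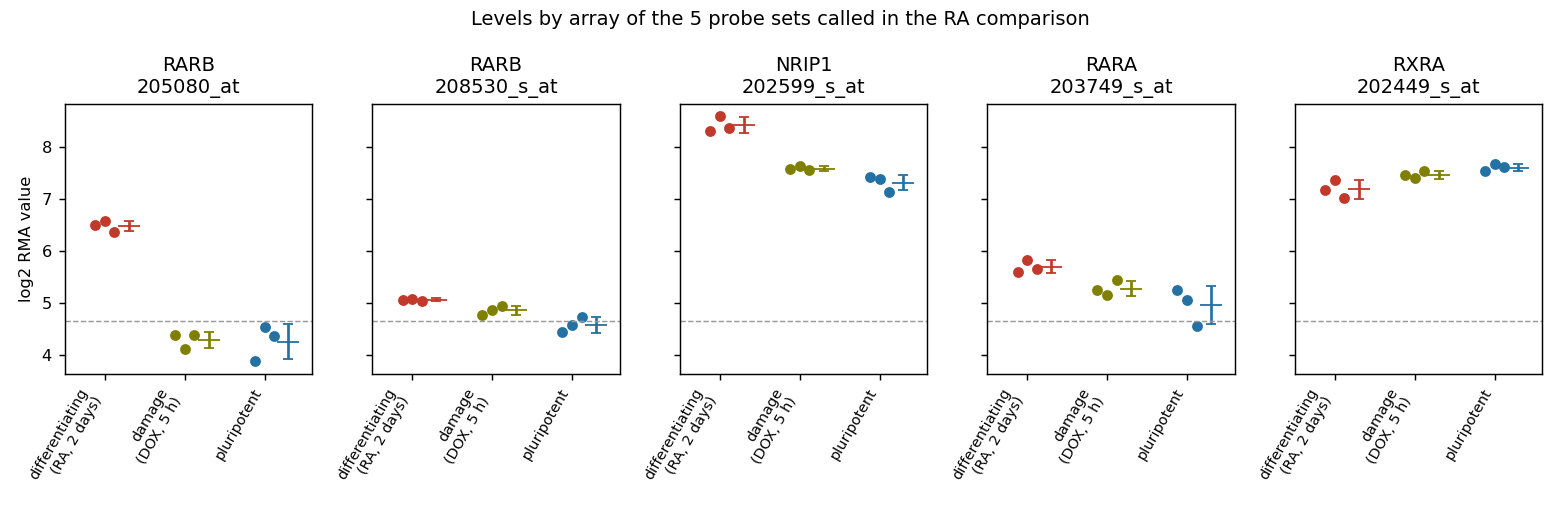
Log2 RMA value on each array (points) with group mean and SD (bars), n = 3 arrays per group, for the 5 probe sets called in the RA comparison; the dashed line marks the median probe set. RARB 205080_at is above the line in the differentiating arrays and below it in the damage and pluripotent arrays, and NRIP1 202599_s_at runs from 8.31 to 8.59 in differentiating against 7.14 to 7.41 in pluripotent arrays.

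RARA encodes the receptor subtype expressed most widely in the body. RARA 203749_s_at read 5.60, 5.83 and 5.65 in differentiating, 5.25, 5.15 and 5.44 in damage and 5.26, 5.07 and 4.57 in pluripotent arrays. The differentiating arrays lay above all others, and the lowest value was that of the third pluripotent array, the only one below the median probe set. The RA change was 0.73 (SE 0.16, interval 0.38 to 1.08, adjusted p = 0.0307), or 1.66-fold. It was 0.53 without the third pluripotent array (adjusted p = 0.0416). The call was lost without any 1 of the differentiating arrays, without the first damage array or without the second pluripotent array (adjusted p 0.0534 to 0.127). With DOX the change was 0.32 (interval −0.03 to 0.66, adjusted p = 0.309), and differentiating against damage arrays gave 0.41 (adjusted p = 0.127). That difference passed when the third pluripotent array was left out (adjusted p = 0.0236) and when only the differentiating and damage arrays were fitted (adjusted p = 0.0348).

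The other 4 RARA probe sets did not pass in any comparison of the reported fit. RARA 216300_x_at, the one with the highest mean, read 6.69, 6.17 and 6.39 in differentiating and 6.02, 6.05 and 6.17 in pluripotent arrays, so that the groups touched. Its RA change was 0.34 (interval 0.07 to 0.60, adjusted p = 0.239). RARA 203750_s_at changed by 0.18 and RARA 211605_s_at by −0.06 with RA. With DOX RARA 203750_s_at changed by 0.24 (adjusted p = 0.315). That change passed when the third pluripotent array was left out (0.38, adjusted p = 0.0465). RARA 1565358_at had the widest spread of the 21, with 5.12, 5.34 and 6.61 in differentiating, 5.60, 5.79 and 4.81 in damage and 5.64, 5.75 and 5.46 in pluripotent arrays. Its interval with RA ran from −0.70 to 0.84 and with DOX from −0.99 to 0.55. In a limma fit of the mean of all probe sets of each gene, RARA was higher with RA by 0.25 (adjusted p = 0.0434). At 1 probe set per gene it did not pass (0.34, adjusted p = 0.147).

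RARG encodes a subtype that carries much of the RA response of mouse embryonal carcinoma cells. RARG 204189_at read 6.76, 6.76 and 6.72 in differentiating, 6.76, 6.76 and 6.74 in damage and 6.89, 6.79 and 6.76 in pluripotent arrays. The differentiating and damage arrays overlapped, and both reached only the lowest pluripotent value. The changes were −0.07 with RA (interval −0.21 to 0.08) and −0.06 with DOX (interval −0.21 to 0.09). RARG 204188_s_at changed by −0.11 with RA (interval −0.30 to 0.07) and −0.03 with DOX. RARG 217178_at, below the median probe set on all 9 arrays, changed by 0.06 and −0.02. No RARG probe set passed, the smallest adjusted p being 0.701 with RA and 0.719 with DOX, and the widest intervals left room for changes of −0.30 to 0.31.

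RXRA, a shared heterodimer partner of the receptors, was the member called lower with RA. RXRA 202449_s_at read 7.17, 7.37 and 7.01 in differentiating, 7.45, 7.39 and 7.53 in damage and 7.52, 7.66 and 7.62 in pluripotent arrays. The differentiating arrays lay below all others, and the highest damage array just reached the lowest pluripotent one. The RA change was −0.42 (SE 0.10, interval −0.63 to −0.21, adjusted p = 0.0430). Without any 1 array other than the second differentiating one the call was lost (adjusted p 0.0578 to 0.159), and with the second differentiating array left out the change was −0.51 (adjusted p = 0.0207). With DOX it changed by −0.14 (interval −0.36 to 0.07, adjusted p = 0.471), and differentiating against damage arrays gave −0.27 (adjusted p = 0.0990). That difference passed without the second differentiating array (−0.37, adjusted p = 0.0346) and after further quantile normalization (−0.32, adjusted p = 0.0479). RXRA 202426_s_at changed by −0.07 in both comparisons (adjusted p = 0.876 with RA and 0.778 with DOX). The mean of both gave a log2 change of −0.24 with RA (adjusted p = 0.0470 in the limma fit of gene means).

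RXRB and RXRG encode the other partners. RXRB 209148_at read 7.30, 7.06 and 7.00 in differentiating, 7.05, 6.65 and 6.92 in damage and 6.91, 7.00 and 6.94 in pluripotent arrays, and the groups touched or overlapped. Its changes were 0.17 with RA (interval −0.08 to 0.42) and −0.08 with DOX (interval −0.33 to 0.17). RXRB 215098_at read 4.73, 4.66 and 4.73 in differentiating, 4.89, 5.22 and 4.97 in damage and 4.66, 4.66 and 4.80 in pluripotent arrays, so that the damage arrays lay above the rest. Its DOX change of 0.32 (SE 0.09, interval 0.11 to 0.53) had an adjusted p of 0.0674, the smallest of the 21 in that comparison. It passed when the first damage array was left out (0.39, adjusted p = 0.0443), among probe sets above the median level (adjusted p = 0.0397) and with array weights (adjusted p = 0.0349). Differentiating against damage arrays gave −0.31 (adjusted p = 0.0528), which passed under the same 3 alternatives (adjusted p 0.0316 to 0.0436). RXRB 215099_s_at and RXRG 205954_at lay below the median probe set on all 9 arrays. RXRG changed by 0.12 with RA (interval −0.10 to 0.35) and by 0.07 with DOX (interval −0.15 to 0.30).

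NRIP1, the corepressor that binds ligand-occupied receptors, was higher with RA at both of its probe sets, and 1 passed the test. NRIP1 202599_s_at read 8.31, 8.59 and 8.36 in differentiating, 7.56, 7.63 and 7.54 in damage and 7.41, 7.38 and 7.14 in pluripotent arrays. The groups did not overlap, and the damage arrays lay nearer to the pluripotent ones. The means were 8.42 ± 0.15 in differentiating and 7.31 ± 0.15 in pluripotent cells (SD, n = 3 each). The RA change was 1.11 (SE 0.10, interval 0.89 to 1.33, adjusted p = 9.55e-05), or 2.16-fold with an interval of 1.85- to 2.51-fold. Differentiating against damage arrays gave 0.84 (SE 0.10, adjusted p = 2.43e-04). With DOX the change was 0.27 (interval 0.05 to 0.49, adjusted p = 0.150), which did not pass.

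NRIP1 202600_s_at read 5.78, 6.31 and 5.65 in differentiating, 5.08, 5.62 and 5.14 in damage and 5.37, 5.20 and 4.96 in pluripotent arrays. The differentiating arrays lay above the others, and damage and pluripotent arrays overlapped. Its RA change was 0.74 (SE 0.19, interval 0.32 to 1.15, adjusted p = 0.0715) and its difference from damage arrays was 0.64 (adjusted p = 0.0512). Under a trended and robust prior both passed (adjusted p = 0.0383 and 0.0328), as both did with the replicate number as a block. The difference from damage arrays also passed among probe sets above the median level (adjusted p = 0.0364) and without the third differentiating, the second damage or the third pluripotent array (adjusted p 0.0251 to 0.0496). NRIP1 202600_s_at changed by 0.10 with DOX (adjusted p = 0.836).

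The direct comparison of the treatments called RARB 205080_at and NRIP1 202599_s_at higher in differentiating than in damage arrays and 0 of the 21 lower. That is 9.52% of the 21, beside 12.2% of all probe sets called in this comparison (7.11% higher and 5.13% lower). At an unadjusted p under 0.05 there were 8 of 21, 6 higher and 2 lower, beside 23.5% of all probe sets. The arrays did not overlap for 5 higher and 2 lower probe sets, beside 26.4% of all (14% higher and 12.4% lower). The RA calls on RARB 208530_s_at, RARA 203749_s_at and RXRA 202449_s_at are thus not shown to differ from what DOX did to the same probe sets, although for RARA and RXRA the difference passed under the alternatives given above.

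The RA calls differed in how far they rested on the processing. RARB 205080_at was called under all 17 alternatives in which it was tested, with log2 changes of 2.02 to 2.35 and adjusted p of 9.23e-07 to 5.73e-04. NRIP1 202599_s_at was called under all 16 of its alternatives (1.02 to 1.17, adjusted p up to 0.00211). RARB 208530_s_at was called under 12 of 16, RARA 203749_s_at under 10 of 16 and RXRA 202449_s_at under 6 of 16.

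**Figure D3:**
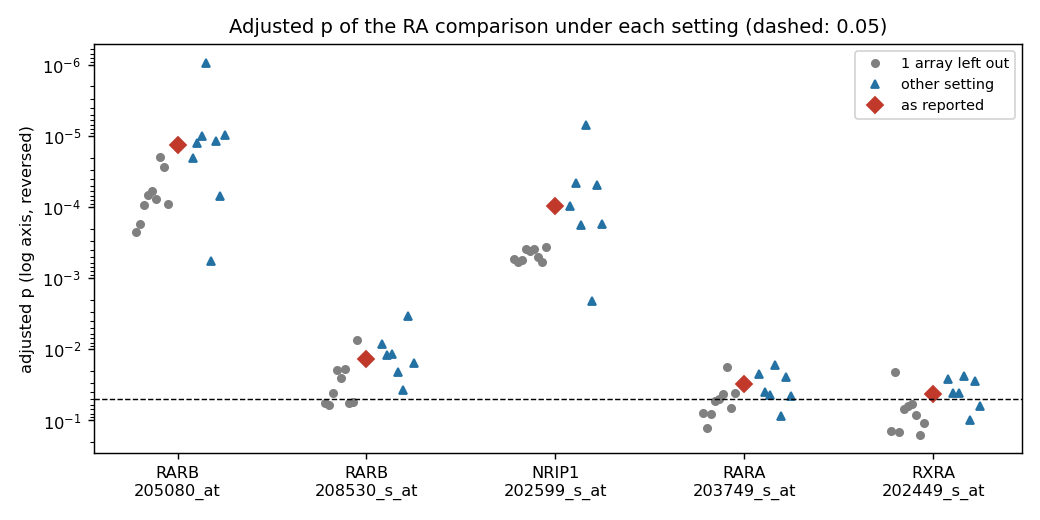
Adjusted p of the RA comparison (log axis, smaller values upward) for the 5 called probe sets, with the reported value (diamond), each fit with 1 array left out (circles) and each other alternative (triangles); the dashed line marks 0.05. RARB 205080_at and NRIP1 202599_s_at stay above the line throughout, while RARB 208530_s_at, RARA 203749_s_at and RXRA 202449_s_at lie on both sides of it.

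The genes around the receptors were examined at 1 probe set per gene. Of 19775 genes, 3.16% were higher and 3.32% lower with RA, and 5.67% were higher and 9.6% lower with DOX. In differentiating against damage arrays 12.6% were higher and 8.62% lower. Genes of retinoid metabolism and binding rose in 4 of 13 measured cases and fell in 1 with RA (median log2 change 0.079, all genes −0.0041). CYP26A1 rose by 1.64. CRABP2, which carries RA to the nucleus, rose by 1.52 (SE 0.08, adjusted p = 1.84e-06), and DHRS3, which turns retinal back into retinol, rose by 0.70 (SE 0.07, adjusted p = 1.57e-04). LRAT, which esterifies retinol for storage, fell by 1.65 (SE 0.14, adjusted p = 3.03e-05), with means of 4.65, below the median probe set, in differentiating and 6.30 in pluripotent cells. FABP5, which also binds RA, rose by 0.35 (adjusted p = 0.00625). With DOX 2 of the 13 rose and 1 fell (median 0.03). ALDH1A3, which makes RA from retinal, rose by 1.29 (adjusted p = 8.32e-06), STRA6, the receptor for retinol uptake, rose by 0.28 (adjusted p = 0.0430), and LRAT fell by 1.55 (adjusted p = 3.00e-05). ALDH1A3 was lower in differentiating than in damage arrays (−1.16, adjusted p = 1.13e-05), while 5 of the 13 were higher, with CRABP2 at 1.57, CYP26A1 at 1.36 and DHRS3 at 0.66.

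Of 12 measured direct retinoid targets, a list that shares CYP26A1, CRABP2 and DHRS3 with the one above, 4 rose and 1 fell with RA (median 0.14). The fourth was MEIS2, a homeobox gene, which rose by 4.18 (SE 0.12, adjusted p = 1.18e-08), 18.1-fold. RARRES2, which encodes the secreted protein chemerin, fell by 0.62 (adjusted p = 0.00250). With DOX 1 of 12 rose, again MEIS2 (0.41, adjusted p = 0.0490), and 0 fell (median 0.12). In differentiating against damage arrays 4 of 12 were higher and 2 lower (median −0.019), beside 12.6% and 8.62% of all genes. Those higher were MEIS2 (3.77), CRABP2, CYP26A1 and DHRS3. RARRES2 (−0.55, adjusted p = 0.00181) and TGM2 (−0.33, adjusted p = 0.0283) were lower, TGM2 with a differentiating mean below the median probe set.

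Corepressor complex genes other than the members had a different count. With RA 1 of 14 measured genes rose and 0 fell (median −0.05). It was the histone deacetylase gene HDAC1 (0.31, adjusted p = 0.0233). With DOX 0 rose and 5 of 14 fell (median −0.16, all genes −0.0047, beside 9.6% of all genes lower). SIN3A, the scaffold of a deacetylase complex, fell by 0.85 (SE 0.09, adjusted p = 1.18e-04). TBL1XR1 and TBL1X, subunits of the NCOR complexes, fell by 0.46 (adjusted p = 0.00165) and 0.39 (adjusted p = 0.00278), and TRIM24, a coregulator that binds retinoic acid receptors, fell by 0.35 (adjusted p = 0.00322). The fifth was the corepressor gene CTBP2 (−0.29, adjusted p = 0.0172). SIN3A (0.73), TBL1X (0.46), HDAC1 (0.35) and TBL1XR1 (0.26) were higher in differentiating than in damage arrays and CTBP1 (−0.24) was lower, 4 and 1 of 14, beside 12.6% and 8.62% of all genes.

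Coactivator genes were called in 0 of 11 cases with RA by limma (2 at an unadjusted p under 0.05, median 0.10). With DOX 1 rose and 1 fell (median −0.10). KAT2B, an acetyltransferase gene, rose by 0.73 (adjusted p = 1.88e-04) with a pluripotent mean of 4.07, below the median probe set. NCOA7 fell by 0.95 (adjusted p = 2.67e-04). In differentiating against damage arrays 4 of 11 were higher and 1 was lower, beside 12.6% and 8.62% of all genes. They were NCOA7 at 1.05, NCOA1 at 0.45, NCOA6 at 0.45, NCOA2 at 0.39 and KAT2B at −0.48.

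Among 10 measured nuclear receptors that pair with RXR, 1 rose with RA, the fatty acid sensor PPARA (0.53, adjusted p = 0.0220), and 1 rose with DOX, the immediate-early receptor NR4A1 (0.52, adjusted p = 0.0165). None of the 10 fell in either comparison (medians −0.0094 with RA and 0.092 with DOX). In differentiating against damage arrays 0 of the 10 were higher and 2 lower, beside 12.6% and 8.62% of all genes. The lower ones were NR4A1 (−0.46) and NR4A2 (−0.43, below the median probe set in every group). Of 8 orphan receptors that bind related hexamers, 2 rose and 0 fell with RA (median 0.07). They were NR6A1, known in the mouse as a repressor of Pou5f1 in differentiating cells (1.34, SE 0.08, adjusted p = 2.82e-06), and NR5A2 (0.85, adjusted p = 0.00209), whose mean lay below the median probe set in damage and pluripotent arrays, so that the size of its changes is uncertain. With DOX 0 rose and 3 fell (median −0.18), namely RORA (−1.27, adjusted p = 0.00403), NR2C2 (−0.47, adjusted p = 0.00615) and NR2F6 (−0.31, adjusted p = 0.0168). In differentiating against damage arrays 4 of these 8 were higher and 0 lower, beside 12.6% and 8.62% of all genes. NR6A1 was higher by 1.30, NR5A2 by 1.23, NR2C2 by 0.75 and NR2F6 by 0.37.

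**Figure D4:**
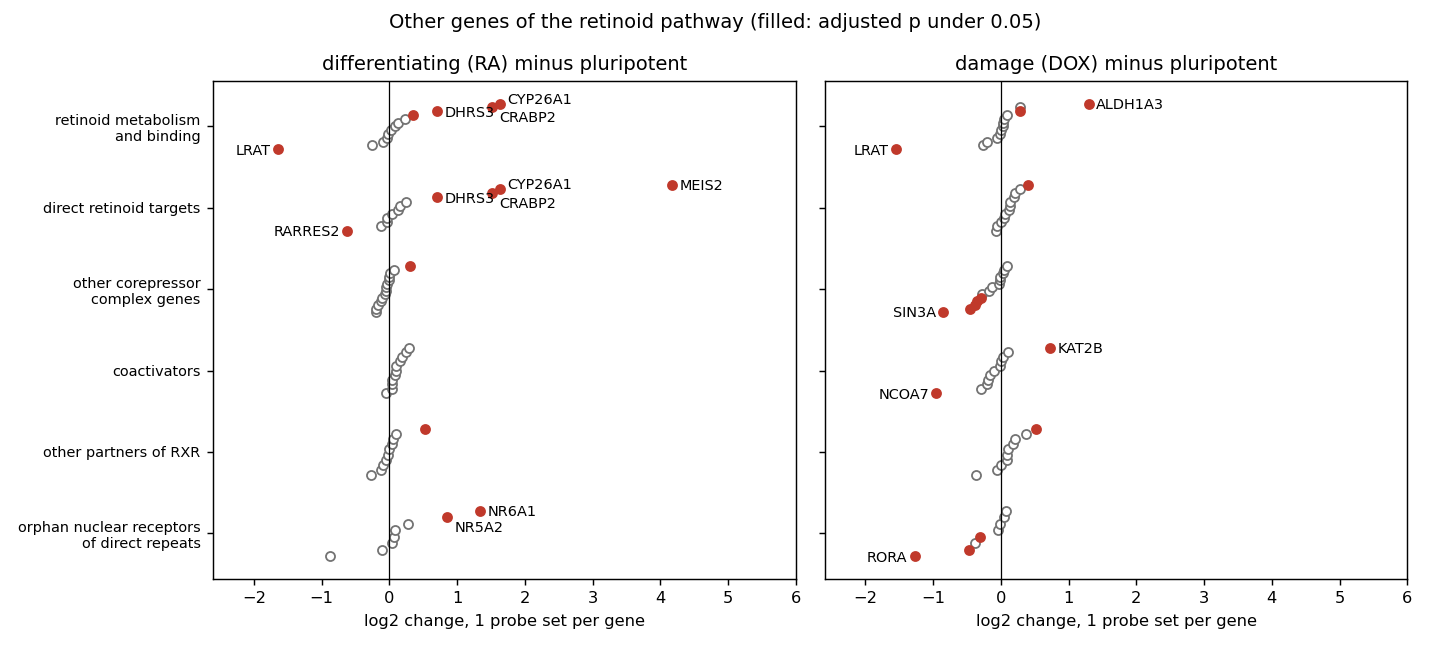
Log2 change of each measured gene of the 6 lists, 1 probe set per gene, differentiating minus pluripotent on the left and damage minus pluripotent on the right; filled points have an adjusted p under 0.05. With RA, MEIS2 at 4.18 lies farthest from 0, and with DOX the called corepressor complex genes all lie left of 0.

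The genes most like each called member over the 9 arrays were sought among 8135 genes whose level ranged over at least 0.5 on the log2 scale, by Pearson correlation. The 9 arrays share 3 conditions, so that the points of each correlation fall into 3 groups. Genes picked in this way follow the member by selection, so their changes with RA and DOX are a description only. For RARB 205080_at they were FXYD6 (r = 0.989), OLIG3 (0.987) and CA4 (0.987), which rose with RA by 1.60, 3.50 and 3.20 and changed by −0.01, 0.19 and 0.19 with DOX. For NRIP1 202599_s_at they were FA2H (0.995), ARHGAP29 (0.989) and KRT19 (0.986), which rose with RA by 1.28, 2.14 and 0.98. ARHGAP29 also rose with DOX (0.55, adjusted p = 0.0335), whereas FA2H (0.29, adjusted p = 0.0524) and KRT19 (0.19, adjusted p = 0.0747) did not pass. For RXRA 202449_s_at they were TATDN2 (0.963), FBXL7 (0.957) and NDRG4 (0.949), which fell with RA by 0.34, 0.55 and 0.40. RARA 216300_x_at, the RARA probe set of the highest mean, was not itself called. It had lower likeness, with IL10RB at 0.887, BBOX1 at 0.874 and APC2 at 0.867, and none of these genes passed with RA.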

How the data were processed

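The authors deposited normalised log2 values per probe set, made with RMA and the package affy per the submitters' processing notes. No version of either is given in the sources used. RMA corrects background, normalises arrays by quantiles and summarises probes by median polish, which compresses changes of dim probe sets and removes a shift shared by most probe sets. RNA was labelled with biotin per the labels' protocols. Of 54675 probe sets 62 controls were left out. The platform annotation gave 1 gene for 41091 probe sets, several for 1801 and none for 11721. By Entrez identifier 41037 matched RefSeq, and 0 symbols were updated.

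Groups came from the labels. limma 3.58.1 in R 4.3.3 (lmFit and eBayes, 6 residual degrees of freedom) was fitted to all 9 arrays and 54613 probe sets without a filter, with Benjamini-Hochberg adjustment over all of them. Lists and likeness used 1 probe set per gene, that of the highest mean (19775 genes, gene-level fit). The fit was run on simulated data with independent normal noise for each probe set. That run checked the code and was no test of the calls reported here. No array measure of background was used, so the median probe set served as a mark, and the number of arrays limits the precision. Among 36 pairs of arrays, 0 were identical.

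The members and lists were chosen with earlier results of these data known. All member probe sets are named, besides up to 4 called genes with the largest absolute change per list and comparison, a fixed set (CYP26A1, CDKN1A, MDM2, POU5F1, NANOG, SOX2) and the 3 genes most like each called member. FABP5, RARRES2, TGM2, CTBP1, CTBP2, NCOA2, NR4A2, ATXN1L and the fibroblast markers were named after their values were seen. Alternatives covered filtering of dim probe sets, normalization, the prior, the arrays fitted, array weights, the replicate number as a block, the choice of probe sets and leaving out each array. Promoter windows came from RefSeq.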

Additional observations from a re-analysis of the deposited data

How the results depend on the processing

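No called change of a member took the other sign under an alternative that was run. Of the 63 changes of member probe sets over the 3 comparisons, 25 took the other sign under at least 1 alternative, and 0 of these were called under any setting (reported sizes up to 0.29). The gene-level change of RXRB with DOX was −0.08 at 1 probe set and 0.04 by the mean of all. With probe sets left out whose names end in x_at or s_at, 9 members remained to be tested, and the counts of members with RA were 1 higher and 0 lower, and 1 higher in differentiating than in damage arrays. The same setting, with fewer probe sets tested, gave over all probe sets 500 higher and 442 lower with RA, 1065 and 1537 with DOX, and 2523 and 1573 in differentiating against damage arrays, where 802 and 809, 1745 and 2466, and 3882 and 2802 were reported. At 1 probe set per gene 2 of 7 members were higher with RA. In fits of only the compared groups 0 members were lower with RA. Among probe sets above the median level 1 member was higher with DOX and 1 was lower in differentiating than in damage arrays, where array weights gave 2 and 1 and further quantile normalization gave 1 lower. In the 6 lists together (65 genes) 4 were lower with RA by the mean of all probe sets, against 2, and 3 higher with DOX after centring, against 5. The cause of these shifts was not tested.

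Leaving out each array in turn, members called with RA numbered 2 to 4 higher and 0 to 1 lower, with DOX 0 to 2 higher, and in differentiating against damage arrays 2 to 4 higher and 0 to 1 lower. Over all probe sets RA gave 495 to 748 higher and 501 to 776 lower, and DOX 1279 to 3028 lower. The lists gave 2 to 5 higher with DOX and 3 to 6 lower in differentiating against damage arrays, where 7 were reported.

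Whether the replicate numbers pair the arrays was not settled, and the reported fit did not use them. Same-numbered arrays had correlations of deviations from −0.103 to 0.199 for RA, 0.0374 to 0.151 for DOX and −0.0393 to 0.0881 between treatments, and 4, 5 and 4 of 6 arrays correlated best with their own number. Each array had 3 candidates for its best match, so these counts lie above an even spread, although the correlations were low. With the replicate block, 5 members were higher and 0 lower with RA, 0 and 0 with DOX, and 3 and 0 in differentiating against damage arrays. NRIP1 202600_s_at passed with the block both with RA (adjusted p = 0.0192) and against damage arrays (adjusted p = 0.0132). RXRA 202449_s_at lost its RA call with the block (adjusted p = 0.0620). Over all probe sets the block gave 858 and 824, 1810 and 2670, and 4119 and 2842, each above the reported count. In the lists it gave 9 and 2, 4 and 10, and 19 and 6.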

Other observations

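Identical values on several arrays of a group were found in 4 of the 21 probe sets. RARA 203750_s_at read 5.57 on all 3 differentiating arrays, to the last deposited digit, and so had an SD of 0 there, while it read 5.60, 5.50 and 5.82 on damage arrays and 5.19, 5.32 and 5.67 on pluripotent arrays. RARG 204189_at, RXRA 202426_s_at and RXRB 215098_at had such ties between at least 2 arrays of a group. Over all probe sets, 11.5% had a tie within the differentiating, 8.90% within the damage and 12.2% within the pluripotent arrays. limma's moderated spread was used for these as for the rest. It is each probe set's own spread over all groups, drawn toward a value common to all probe sets.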
